A study of Mus musculus with 143 samples.

Results

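The histone mark H3K27me3 was profiled in fully grown oocytes of adult mice at the germinal vesicle (GV) stage, the stage of prophase arrest with an intact nucleus, of 2 genotypes, control and conditional knockout (cKO) of the gene Dis3. The libraries were chosen by their titles, which name the mark, the adult GV stage, the genotype and a number. They are 6 of the 143 samples of the series, with 3 control and 3 Dis3 cKO libraries. The 6 peak lists held 387969 control peaks and 745021 Dis3 cKO peaks on chromosomes 1 to 19 and X. The labels describe the cells as bulk mouse oocytes and the mutant animals as made by CRISPR/Cas9. They do not give the strain, the age in weeks, the alleles of the controls, the Cre line or its promoter, or how many oocytes or females went into a library. The 3 libraries of a group are not stated to come from separate animals, so every p-value here measures the spread between libraries, which may be technical. An IgG group of the same assay was not analysed here.

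DIS3 is a ribonuclease of the exosome, which trims and degrades RNA in the nucleus. H3K27me3 is deposited by Polycomb repressive complex 2, whose catalytic subunit is EZH2 or EZH1, and in most cells it marks CpG-rich promoters of silent developmental regulators such as the Hox genes. The growing oocyte is known for carrying the mark also in broad domains away from genes, some of which pass to the embryo and silence the maternal copy of a small set of genes. The mark was mapped by CUT&Tag, in which an antibody guides a transposase that cuts and tags the chromatin it is bound to. Each peak comes with its start and end, a total signal, which is the summed pileup of fragments over its bases, and a maximum signal, which is the highest pileup. Signal per base is the total divided by the width. Depth was made equal by the authors at 3000000 sampled reads a library without removal of duplicates, so a library whose reads gather in few places has fewer reads left for the rest.

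Control 2 stood apart from controls 1 and 3 in nearly every measure of its list. It had 202546 peaks against 98100 and 87323 in controls 1 and 3, and 1533 peaks of 5 kb or more against 143 and 146. It covered 9.91% of the X chromosome against 1.29% and 1.28%. Its signal was higher at developmental genes (median 12.5 per base over their promoter windows, against 7.76 and 8.95) and lower over the broad domain of chromosome 6 (3.21 per base against 11.9 and 12.04). Results that rest on this library are given with and without it. In pooled oocytes, fewer cells carrying the mark and less mark per cell cannot be told apart. RNA of the same stage and genotypes was read in other libraries, from single oocytes sequenced after removal of ribosomal RNA (RiboMinus, 8 oocytes a group). It does not show which cells the H3K27me3 pools held. Bmp15, a growth factor that oocytes secrete, stood at 2727 ± 488 CPM (read counts scaled to the library total, SD, n = 8 oocytes) in controls and 2641 ± 385 CPM in Dis3 cKO. Of 13 listed oocyte genes tested for RNA with edgeR, 8 were lower in Dis3 cKO and 2 higher, Nobox and Oosp1 (log2 fold changes 0.34 and 0.31, scaled to spiked ERCC RNA -0.21 and -0.27), beside 12.4% and 15.7% of all genes. The zona pellucida gene Zp3 stood at 779 ± 121 CPM in controls and 479.7 ± 32.0 CPM in Dis3 cKO. Dis3 itself stood at a median of 15.3 CPM in controls (8.72 to 20.5) and 1.88 CPM in Dis3 cKO oocytes (0.684 to 3.60), with no overlap (log2 fold change -3.13 ± 0.33 SE). The 8 oocytes of a group carry only 2 numbers in their titles, and with counts summed by number edgeR called 0 genes (3577 at an unadjusted p under 0.05), against 4305 with oocytes as replicates.

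H3K27me3 peaks were more numerous, covered more of the genome and were shallower in the Dis3 cKO libraries than in controls 1 and 3. The lists of controls 1, 2 and 3 held 98100, 202546 and 87323 peaks, and those of Dis3 cKO 1, 2 and 3 held 276057, 224669 and 244295. Every Dis3 cKO list was longer than every control list. The means were 129323 ± 63641 (SD, n = 3) and 248340 ± 25932 peaks, a ratio of 1.92 that was 2.68 without control 2 (2-sided exact permutation p = 0.1, adjusted over the 8 list values 0.2). With 3 libraries against 3, 0.1 is the smallest p that this test can give, so none of these list values can pass 0.05.

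Covered length followed the same order as peak number. It was 75.1, 152 and 66.7 Mb in the controls and 194, 153 and 160 Mb in the Dis3 cKO libraries. The groups did not overlap, although control 2 and Dis3 cKO 2 were within 2 Mb of each other. The ratio of means was 1.73, or 2.39 without control 2 (exact permutation p = 0.1, adjusted 0.2). The difference of the means was 71.5 Mb, 31.9 Mb with only peaks above the median total signal (exact permutation p = 0.1), and 7.87 Mb with lists cut to equal length by total signal (exact permutation p = 0.6), where the groups overlapped. The summed signal of all peaks did not separate the genotypes, at 493, 555 and 461 in controls against 557, 503 and 494 in Dis3 cKO, in units of 1000000 fragment bases (exact permutation p = 0.5). With peaks above the median total signal it was 71.1 of these units lower in Dis3 cKO, and with lists of equal length 138 lower, with no overlap in either (exact permutation p = 0.1 each).

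Peak height differed in the opposite sense, with control 2 on the side of the knockouts. The median signal per base of a peak was 5.70, 2.29 and 5.99 in controls 1, 2 and 3, and 2.54, 2.98 and 2.80 in the Dis3 cKO libraries. The median of the maximum signal was 10, 4 and 11 fragments against 4, 5 and 5. Peaks whose maximum reached 10 fragments made up 56.3% and 59.3% of the lists of controls 1 and 3, 5.68% of control 2, and 6.39%, 11.8% and 8.80% of the Dis3 cKO lists. With control 2 included the groups overlapped on both medians (exact permutation p = 0.4 for each, adjusted 0.457).

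**Figure D1:**
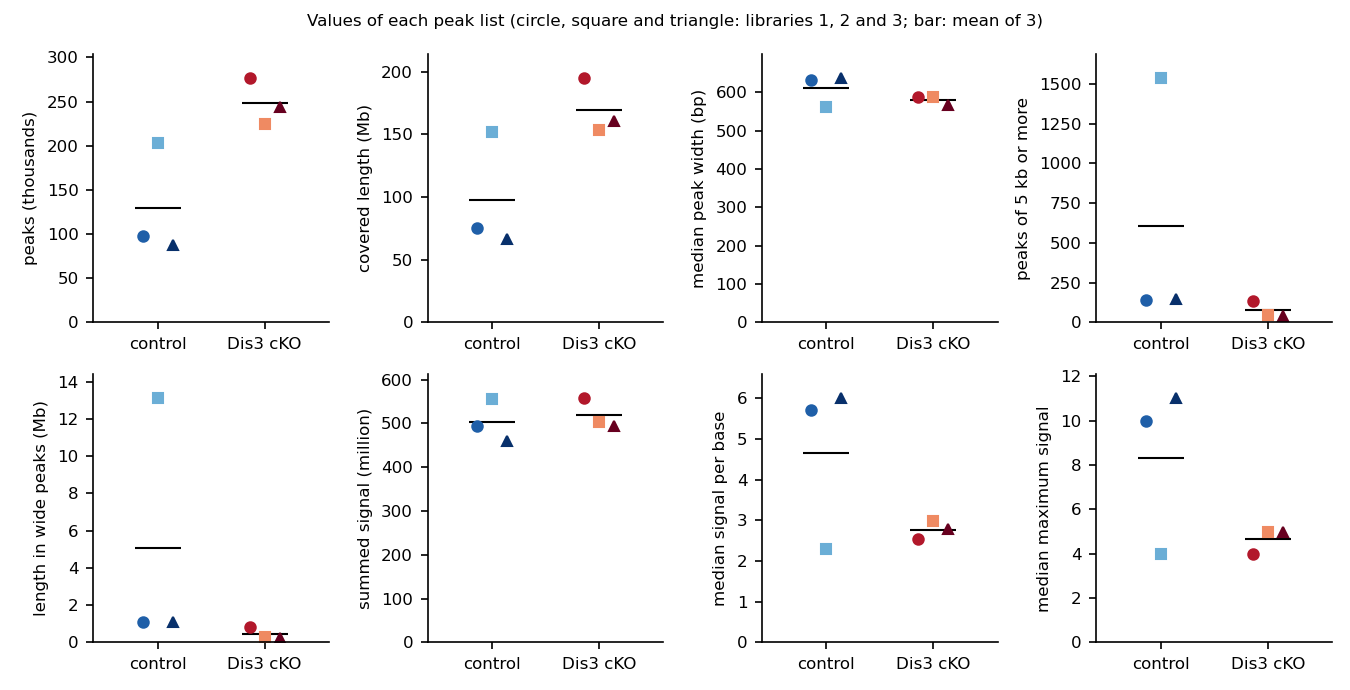
Each panel plots a value of the 6 peak lists on a linear axis from 0, for the 3 control and the 3 Dis3 cKO libraries, with the mean of each group as a bar. Peak number and covered length lie higher in every Dis3 cKO library than in every control, and control 2 lies apart from controls 1 and 3 in peaks of 5 kb or more (1533 against 143 and 146) and in median signal per base.

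Median widths overlapped between the genotypes, and the widest peaks did not. The median width was 633, 562 and 636 bp in controls and 587, 588 and 567 bp in Dis3 cKO libraries (exact permutation p = 0.4). With lists cut to equal length by total signal, the mean of the median widths was 158 bp larger in Dis3 cKO (exact permutation p = 0.1). The 99th percentile was 2885, 4237 and 2865 bp in controls and 2475, 2163 and 2097 bp in Dis3 cKO. The widest single peak spanned 87210, 67793 and 87183 bp in controls and 12277, 10518 and 9267 bp in Dis3 cKO. At these upper widths all 3 controls lay above all 3 knockouts.

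Peaks of 5 kb or more, called wide here, numbered 143, 1533 and 146 in controls and 137, 48 and 42 in Dis3 cKO. All Dis3 cKO counts lay below all control counts, but Dis3 cKO 1 was only 6 peaks below control 1. The ratio of means was 0.125 and moved to 0.524 without control 2 (exact permutation p = 0.1, adjusted 0.2). Wide peaks spanned 1.11, 13.1 and 1.08 Mb in controls and 0.849, 0.297 and 0.246 Mb in Dis3 cKO. Since the Dis3 cKO lists were longer, wide peaks were also a smaller share of them. Of the summed signal, 2.80%, 27.6% and 3.32% lay in wide peaks in controls, against 0.729%, 0.341% and 0.273% in Dis3 cKO.

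Wide peaks in Dis3 cKO were also shallower than those in controls. Their median signal per base was 12.2, 10.0 and 13.6 in controls and 4.45, 5.22 and 4.61 in Dis3 cKO, and their median maximum was 41, 33 and 45 fragments against 14, 16.5 and 15.5. On this measure control 2 lay with the other controls. At a minimum of 10 kb the counts were 13, 340 and 12 in controls and 6, 1 and 0 in Dis3 cKO. At 2 kb the groups overlapped, with 2835, 7072 and 2529 against 5892, 3105 and 2974. Where peaks within 1 kb of each other were joined before the width was taken, the counts of 5 kb or more were 2244, 5599 and 1828 against 7076, 3723 and 3994, so the direction of the group means turned. Oocytes of postnatal day 20 (p20), profiled in the same series, gave 908, 1108 and 779 wide peaks in controls and 36, 66 and 21 in the double knockout of Dis3 and Exosc10.

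**Figure D2:**
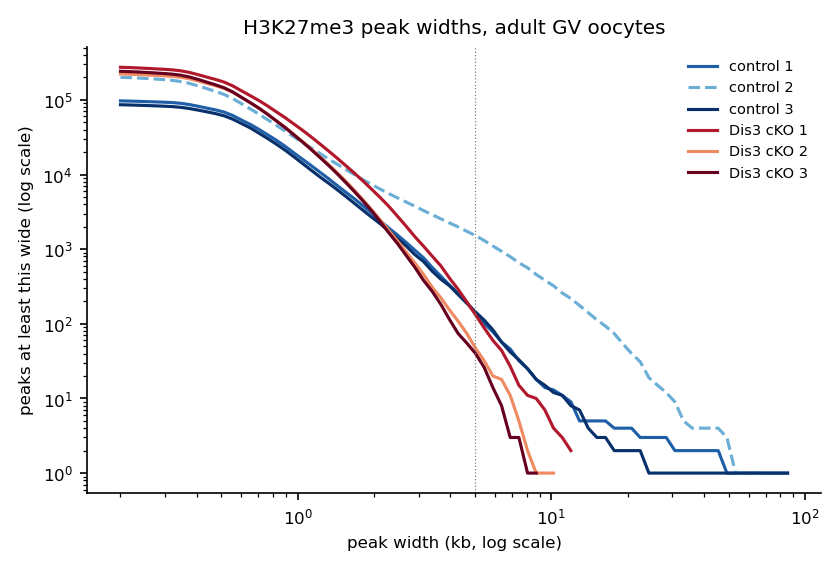
For each library the line gives how many peaks were at least as wide as the value on the horizontal axis, both axes on a log scale, with a dotted line at 5 kb. The control lines reach 67793 to 87210 bp and the Dis3 cKO lines end between 9267 and 12277 bp, and control 2 (dashed) has the most peaks at 5 kb (1533 against 42 to 146) and at 10 kb (340 against 0 to 13), although its line ends before those of controls 1 and 3.

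Domains that were wide in 2 controls were largely covered in the control left out and less so in the knockouts. Regions inside wide peaks of both libraries of a control pair numbered 120, 64 and 95 for the 3 possible pairs. The control that was left out covered 89.5%, 93.6% and 90.7% of their length with peaks of any width. Dis3 cKO libraries 1, 2 and 3 covered 53.7%, 39.5% and 38.7% of the first set, 63.6%, 53.4% and 52.0% of the second and 57.0%, 42.9% and 40.9% of the third. The signal per base over these domains was 11.8, 17.0 and 13.6 in the control left out and between 1.62 and 2.83 in Dis3 cKO. With the genotypes exchanged, pairs of Dis3 cKO libraries shared 10, 17 and 19 wide domains. The Dis3 cKO library left out covered 96.3%, 91.6% and 88.0% of those, and the controls covered 71.1% to 86.5%. The signal per base over them was 7.45, 6.76 and 5.90 in the Dis3 cKO library left out and between 9.07 and 69.9 in controls. Each of these sets includes the ribosomal RNA repeat Rn18s-rs5, at 55.5, 597 and 128 per base in controls and 18.6, 15.1 and 23.2 in Dis3 cKO. Means without this repeat were not computed, so whether controls were higher over the other domains is not shown. Where peaks within 1 kb were joined first, the control left out covered 78.6%, 89.1% and 79.7% of control domains and Dis3 cKO libraries a mean of 55.4%, 65.0% and 62.3%. With the genotypes exchanged the joined peaks gave 87.3%, 72.5% and 73.4% in the Dis3 cKO library left out and a mean of 61.1%, 57.8% and 57.7% in controls. At 5 kb, joined or not, domains chosen in some libraries were thus covered less in the other genotype in both directions. From 10 kb, Dis3 cKO 1 and 2 shared 1 domain, which Dis3 cKO 3 covered over 89.2% and the controls over a mean of 97.8%.

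The 64 domains shared by controls 1 and 3 show what lay in place of the wide peaks. They lay at 46 loci and 14 of them belonged to a single locus on chromosome 6. The widest peak touching a domain had a median width of 8497.5 bp in control 2, which was not used to choose them, and of 2364, 1991 and 1780 bp in the Dis3 cKO libraries. A peak of 5 kb or more was present at 45 of the 64 domains in control 2 and at 10, 5 and 13 in Dis3 cKO. No peak at all was found at 1 domain in control 2 and at 2, 2 and 7 in Dis3 cKO. Most domains thus held shorter pieces of the mark in the knockouts: the median number of peaks per domain was 3, 2.5 and 3, against 1 in control 2.

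The domains did not behave alike. In all 3 Dis3 cKO libraries, 15 domains were covered over 80% or more of their length, 11 were covered over less than 50%, and 38 lay between. The 11 domains with little cover contained the 5S rRNA gene array, a pair of stretches of a tRNA gene array, the starts of Neurog1, which drives sensory neuron formation, and of Cilp2, and stretches overlapping Otx1, Pax3, Islr2, Hoxb5, Igf2 and 3632454L22Rik. Their median signal per base was 12.1, 17.6 and 13.9 in controls and 0.538, 0.421 and 0 in Dis3 cKO. Domains were chosen as wide in controls 1 and 3 and sorted by their cover in Dis3 cKO. Of the signal values of these groups, only those of control 2 were thus free of the choice. Of the 15 domains that kept their cover, 0 held the start of a protein-coding gene, beside 13 of all 64 domains, 11 of the 38 and 2 of the 11. A total of 8 overlapped a gene, among them Flg, Ahnak2, Akap6, Dagla, Tsku and the ribosomal RNA repeat Rn18s-rs5, and the other 7 lay in gene-free sequence of chromosome 6. Their median signal per base was 12.1, 3.34 and 10.9 in controls and 4.46, 4.86 and 3.98 in Dis3 cKO, so control 2 was as low there as the knockouts.

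Gene clusters were compared over their whole length, from the first to the last gene. Hox genes encode the transcription factors that pattern the body axis and are a standard Polycomb target. The Hoxa cluster (chr6:52155367-52260880, GRCm38) had a signal of 7.76, 13.8 and 9.48 per base in controls and 1.30, 1.03 and 1.01 in Dis3 cKO. Bases outside listed peaks count as 0 in these values, so no fold is given. Peaks covered 70.0%, 97.5% and 76.1% of it in controls and 38.4%, 30.2% and 27.6% in Dis3 cKO. The widest peak in the cluster spanned 47406 bp in control 2, and 5947 and 5667 bp in controls 1 and 3.

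The other Hox clusters gave the same picture, with no overlap between groups. The Hoxb cluster (chr11:96194316-96368254) stood at 4.09, 10.2 and 5.77 in controls and 0.916, 0.703 and 0.814 in Dis3 cKO. The Hoxc cluster (chr15:102921131-103036856) stood at 4.50, 7.55 and 5.73 against 1.06, 0.736 and 0.719. The Hoxd cluster (chr2:74668225-74765142) stood at 5.45, 8.34 and 6.73 against 0.920, 0.901 and 0.799. In each of the 4 clusters control 2 was the highest library, and controls 1 and 3 alone also lay above every knockout.

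The widest peak of each control was the array of 5S ribosomal RNA genes on chromosome 8, which RNA polymerase III transcribes. The array (chr8:123538784-123622046, 41 genes) was covered over 100%, 99.7% and 100% of its length in controls and over 18.4%, 5.42% and 0% in Dis3 cKO. Its signal per base was 10.2, 11.5 and 9.34 in controls and 0.275, 0.0767 and 0 in Dis3 cKO. RNA polymerase II (Pol II) peaks of the same stage and genotypes covered 98.0% to 100% of the array in all 6 Pol II libraries, so cover by that assay did not separate the genotypes. A tRNA gene array (chr1:171033942-171111515, 25 genes) stood at 3.75, 8.97 and 4.28 in controls and 0.249, 0.0343 and 0.0715 in Dis3 cKO. Both arrays consist of near-identical copies, and how reads were placed among such copies is not given in the sources used here, so the values hold for the arrays and not for single genes.

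Regions with wide peaks in the knockouts were few and differed from these. The gene-free domain of chromosome 6 (chr6:114510779-114637703) was covered over 98.6%, 89.4% and 97.8% in controls and 85.5%, 84.8% and 81.7% in Dis3 cKO. Its signal per base was 11.9, 3.21 and 12.04 against 3.55, 3.32 and 3.36, so it was low in the knockouts and in control 2 alike. The widest peak of any Dis3 cKO library spanned 12277 bp within Mroh2a (chr1:88234025-88247587), where the signal was 8.00, 2.42 and 4.50 in controls and 6.07, 7.15 and 7.92 in Dis3 cKO, with overlap. The widest peak within Mroh2a spanned 3279, 2832 and 1517 bp in controls and 12277, 6833 and 7790 bp in Dis3 cKO, with no overlap. At 4930572O03Rik on chromosome 5 the signal was 0.940, 0.516 and 1.38 in controls and 6.80, 4.61 and 4.02 in Dis3 cKO. These loci were picked by their width in these lists, and their values are given as a description.

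**Figure D3:**
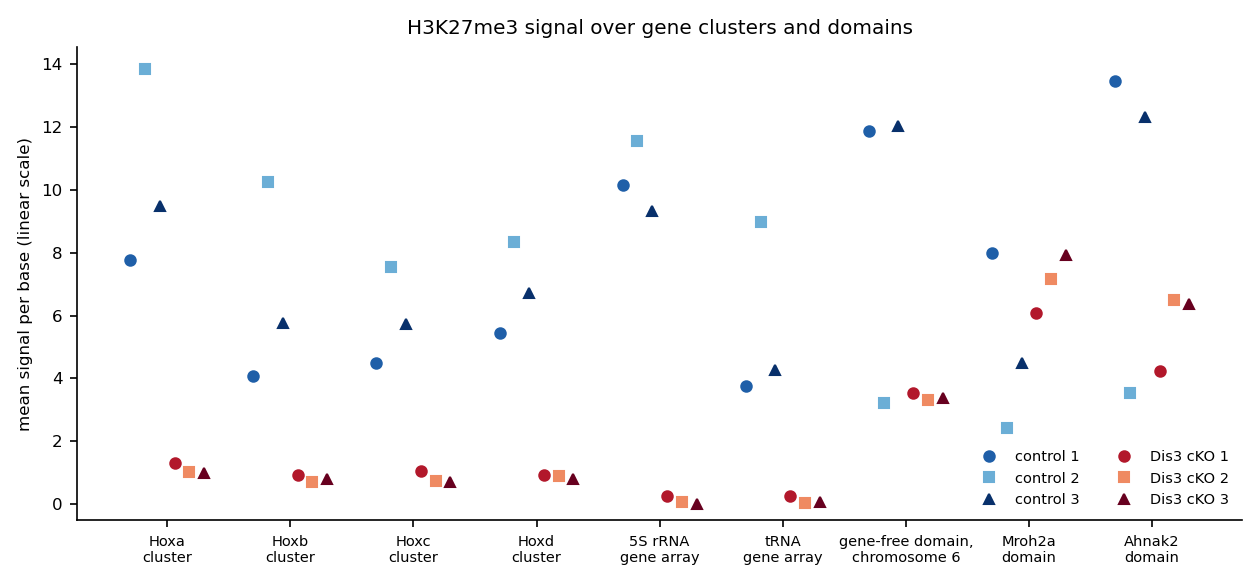
The mean signal per base (linear axis) is plotted for the 6 libraries over Hox clusters, RNA gene arrays and domains. The Dis3 cKO points lie at 1.30 or lower at the 4 Hox clusters and at 0.275 or lower at the 5S and tRNA arrays, under every control, while control 2 joins the knockouts at the domain of chromosome 6 and at Ahnak2.

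Promoters were compared over windows of 5 kb on either side of the start of each gene, with limma on log2(signal per base + 0.0728), where the added value is a pseudocount. Of 26794 genes with a start site in the gene table, 14214 had a peak in the window in at least 2 libraries and were tested. Signal was lower in Dis3 cKO at 1165 windows (8.20% of those tested) and higher at 283 (1.99%) at an adjusted p under 0.05. The median log2 difference of all tested windows was 0.35. It was -0.17 with lists of equal length, 0.03 with peaks above the median total signal and 0 without the filter, so the general direction depended on the setting. Without control 2, 945 of the 1165 lower and 196 of the 283 higher windows were also called. Leaving out Dis3 cKO 1, 2 or 3 left 709, 612 and 598 lower calls but only 15, 23 and 29 higher ones, and the higher calls were 134 without control 3 and 83 with the library number as a block. Centring each library on its median gave 1457 lower and 65 higher windows.

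Lower and higher promoters, as called with all 6 libraries, differed in their sequence. In the 300 bases around the start (250 before, 50 after), the dinucleotide CG, which reads the same on both strands, occurred a median of 17 times at lower windows, 3 times at higher windows and 6 times at all tested windows. At least 10 CG were found at 74.5% of lower, 7.07% of higher and 34.6% of tested windows, and at 44.3% of all windows with a start site. The share of all promoters with any CG was 94.4%. The median GC content was 61.0%, 47.0% and 51.3%. The windows were called on the signal alone, and the sequence was not part of the call.

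The promoters of 3 lower and 3 higher genes are shown because they carry this contrast. They were read from RefSeq (GRCm38.p6), run 5′ to 3′ on the strand of the gene, and every CG is in capitals. Gbx2 and Gsc encode homeobox factors and Neurog1 a basic helix-loop-helix factor, all regulators of embryonic patterning. Their windows hold chr1:89931127-89931426 (minus strand, 27 CG), chr12:104473187-104473486 (minus strand, 25 CG) and chr13:56252131-56252430 (minus strand, 32 CG).
Gbx2: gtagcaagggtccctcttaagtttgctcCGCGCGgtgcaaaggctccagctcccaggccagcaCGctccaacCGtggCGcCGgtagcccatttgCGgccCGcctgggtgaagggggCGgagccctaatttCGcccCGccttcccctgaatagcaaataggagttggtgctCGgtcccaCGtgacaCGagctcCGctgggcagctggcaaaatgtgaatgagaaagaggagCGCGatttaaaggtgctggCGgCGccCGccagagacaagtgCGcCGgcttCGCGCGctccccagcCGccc
Gsc: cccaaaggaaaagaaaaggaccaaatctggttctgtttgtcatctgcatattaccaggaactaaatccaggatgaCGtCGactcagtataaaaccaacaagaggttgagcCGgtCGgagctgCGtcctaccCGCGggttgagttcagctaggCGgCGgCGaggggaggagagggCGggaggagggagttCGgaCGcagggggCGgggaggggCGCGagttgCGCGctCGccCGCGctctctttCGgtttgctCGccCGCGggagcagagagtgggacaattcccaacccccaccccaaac
Neurog1: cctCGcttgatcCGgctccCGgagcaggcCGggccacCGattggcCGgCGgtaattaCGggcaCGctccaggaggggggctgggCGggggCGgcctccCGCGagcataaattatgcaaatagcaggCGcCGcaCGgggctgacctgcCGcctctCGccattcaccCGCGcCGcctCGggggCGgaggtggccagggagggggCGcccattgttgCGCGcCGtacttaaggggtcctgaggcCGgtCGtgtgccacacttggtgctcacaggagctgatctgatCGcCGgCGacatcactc

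The higher promoters shown are those of the olfactory receptor gene Olfr1341 (chr4:118709159-118709458, plus strand), the kallikrein gene Klk1b26 (chr7:44012428-44012727, plus strand) and the cytochrome P450 gene Cyp2d9 (chr15:82452127-82452426, plus strand), each with 1 CG.
Olfr1341: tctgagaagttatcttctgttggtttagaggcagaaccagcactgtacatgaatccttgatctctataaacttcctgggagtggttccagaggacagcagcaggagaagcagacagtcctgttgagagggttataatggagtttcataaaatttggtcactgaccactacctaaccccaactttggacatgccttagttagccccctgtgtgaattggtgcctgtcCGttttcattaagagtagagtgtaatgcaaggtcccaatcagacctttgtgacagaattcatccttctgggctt
Klk1b26: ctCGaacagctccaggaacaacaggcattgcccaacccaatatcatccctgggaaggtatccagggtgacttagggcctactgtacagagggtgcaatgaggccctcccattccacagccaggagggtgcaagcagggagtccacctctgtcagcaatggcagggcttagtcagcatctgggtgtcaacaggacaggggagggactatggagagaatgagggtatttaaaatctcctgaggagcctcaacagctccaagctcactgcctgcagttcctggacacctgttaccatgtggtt
Cyp2d9: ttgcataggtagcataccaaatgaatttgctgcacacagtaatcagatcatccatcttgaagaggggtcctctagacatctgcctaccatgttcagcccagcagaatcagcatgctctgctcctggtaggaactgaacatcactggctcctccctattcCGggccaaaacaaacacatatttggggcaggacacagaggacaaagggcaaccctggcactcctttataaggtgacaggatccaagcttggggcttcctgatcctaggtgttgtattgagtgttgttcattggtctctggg

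At the 10 protein-coding genes with the largest decreases, the Dis3 cKO lists held no peak or nearly none. The Gbx2 window stood at 11.5, 17.6 and 10.5 per base in controls and at 0 in all 3 Dis3 cKO libraries, and the window of the neighbouring LOC102637806 overlaps it. Neurog1 stood at 7.02, 21.6 and 12.95 in controls and 0.0952, 0 and 0 in Dis3 cKO. Gsc stood at 7.72, 13.2 and 9.24 against 0, 0 and 0. Evx1, a homeobox gene beside the Hoxa cluster, Dio3, which encodes a thyroid hormone deiodinase, Isl2, Adra2b and Tfap2e were also listed at 0 in all 3 Dis3 cKO libraries, with control values between 4.27 and 20.4. Prdm16, a histone methyltransferase gene, stood at 10.2, 20.1 and 11.9 against 0.503, 0 and 0. A peak list gives no value below its caller's threshold, so 0 means that no peak was listed and no fold change is given. Windows at 0 in all Dis3 cKO libraries passed the filter through the controls alone and had to differ, so their p-values are not given.

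The 10 largest increases were smaller in signal. Olfr1341 stood at 0, 0.0467 and 0 in controls and 1.79, 1.94 and 1.31 in Dis3 cKO. H2al2a, a testis histone gene, stood at 0 in all controls and at 1.48, 0.791 and 1.23 in Dis3 cKO. Klk1b26 stood at 0, 0.705 and 0 against 2.03, 1.92 and 2.44, and Klk1 and Klk1b8 of the same chromosome 7 family were also among the 10. Cyp2d9 stood at 0, 0.446 and 0 against 1.61, 1.70 and 1.83. Cd22, Slco1a6, Ctag2l2 and Olfm5 were at 0 in all controls and between 0.621 and 1.16 in Dis3 cKO. All 10 windows held a peak in at most 1 control, so they passed the filter through the Dis3 cKO libraries and their p-values are not given as support. The calls of Klk1b26, Klk1, Klk1b8 and Cyp2d9 were lost when any of the Dis3 cKO libraries was left out (limma adjusted p 0.0930 to 0.145), that of Klk1b26 also without control 1 or 3, that of Klk1 without control 3, that of Ctag2l2 without Dis3 cKO 1 or 3 and that of Olfm5 without Dis3 cKO 1. With windows of 1 kb on either side 9 of the 10 lost their call (all but Ctag2l2, which could not be tested there). A smaller pseudocount and testing without the filter each ended the calls of Klk1b26, Klk1, Klk1b8 and Cyp2d9, and lists of equal length those of Cd22, Slco1a6, Ctag2l2 and Olfm5. Klk1 was also lost by covered length (limma adjusted p 0.0522) and Ctag2l2 with peaks above the median signal, so each of the 10 lost its call in at least 1 setting. Kallikrein, olfactory receptor and Cyp2d genes have near-identical copies, among which reads could be split.

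Developmental regulators carried high promoter signal in controls and were lower in Dis3 cKO with few exceptions. Of 58 listed transcription factors and signalling genes, 42 had a start site in the table, all 42 were tested, 39 were lower in Dis3 cKO and 0 higher, beside 8.20% of all tested windows lower. The median log2 difference of the 42 was -3.40, against 0.35 over all tested windows. Their median signal per base was 7.76, 12.5 and 8.95 in controls and 0.951, 0.659 and 0.846 in Dis3 cKO. The count was 38 without control 2, 34 to 39 with any single library left out, 32 by covered length, and 22 when windows without peaks were tested too.

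The members named here are those with the highest mean over all 6 libraries. This mean pools both genotypes, so a gene with little left in Dis3 cKO ranks lower, such as Neurog1 with a control mean of 13.9. Pax9, needed for teeth and thymus, stood at 17.9, 19.7 and 13.6 in controls and 1.62, 0.919 and 1.48 in Dis3 cKO (log2 difference -3.62 ± 0.33 SE). Pax7, a factor of muscle stem cells, stood at 11.7, 25.2 and 12.9 against 1.99, 1.48 and 1.73, and by covered length it was not called (limma adjusted p 0.0613). Lhx1, a head and kidney regulator, stood at 16.1, 14.9 and 17.2 against 1.92, 0.962 and 1.32. Each of these windows kept a measurable peak in every Dis3 cKO library, unlike Gbx2 or Gsc. Six2, a nephron progenitor factor, stood at 14.8, 14.1 and 15.8 against 2.92, 2.05 and 1.41. T, the mesoderm factor brachyury, stood at 9.99, 17.1 and 13.1 against 1.63, 1.29 and 1.03. Cdx2, the trophectoderm factor, stood at 9.48, 18.0 and 10.98 against 1.88, 1.48 and 1.62. The 3 that were not called had low control signal: Wnt6 stood at 2.43, 0.941 and 3.44 against 1.07, 1.01 and 1.94, and Irx3 and Runx1 also overlapped between groups. Over whole genes with 5 kb on either side, where 5.00% of 31474 spans were lower and 4.85% higher, all 58 regulators could be tested and 52 were lower.

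Hox promoters gave 21 lower and 0 higher of 22 tested, with a median log2 difference of -3.06, beside 8.20% lower, 1.99% higher and a median of 0.35 over all tested windows. By covered length in place of signal 14 were called lower, and 15 when windows without peaks were tested too. Without Dis3 cKO 2 or 3 the count was 16 each. Hoxa5 had the highest mean over all 6 libraries, at 9.68, 12.9 and 12.03 in controls and 2.54, 1.34 and 1.88 in Dis3 cKO (limma adjusted p 0.000333, which was 0.0769 by covered length, so that its call was lost). Hoxc4 was the member not called, at 0.370, 3.15 and 0.0534 against 0, 0 and 0.0560. Over whole genes 35 of the 39 Hox genes were lower, beside 5.00% of all spans. Windows of neighbouring Hox genes overlap, so these are not independent values.

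Of the genes known for imprinting through maternal H3K27me3, only Sfmbt2 was called. Of 6 listed, 4 windows were tested and 1 was lower, beside 8.20% of all tested windows. Sfmbt2, a Polycomb-group gene, stood at 5.22, 4.54 and 5.30 in controls and 1.26, 0.690 and 0.731 in Dis3 cKO (log2 difference -2.44 ± 0.43 SE, limma adjusted p 0.00271). By covered length its limma adjusted p was 0.0623, and none of the 4 was called. Xist, the RNA of X inactivation, stood at 1.58, 0.391 and 0.511 against 0.893, 1.73 and 1.78. Jade1 stood at 1.501, 0.368 and 1.27 against 1.78, 1.15 and 0.966, and Gab1, a signalling adaptor, at 0.740, 0 and 0.466 against 0.674, 0.684 and 0.283. The groups overlapped for these 3 genes. Over whole genes all 6 were tested and 0 were called, where 5.00% of all spans were lower and 4.85% higher. Among genes imprinted through DNA methylation, 2 of 8 windows were tested. Grb10, a growth inhibitor, stood at 2.68, 6.33 and 1.51 against 0, 0 and 0, a window that passed the filter through the controls alone.

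Promoters of oocyte and granulosa cell markers were also measured, without reading from them which cells the pools held. Of 15 oocyte genes with a start site, a peak lay in 3, 12 and 1 windows in controls and in 4, 1 and 2 in Dis3 cKO, so control 2 was the library with marked oocyte genes. Lhx8, a factor of early oocytes, was called lower of 6 tested, beside 8.20% of all tested windows. It stood at 6.32, 12.02 and 9.35 in controls and 0.190, 0 and 0 in Dis3 cKO. Its window passed the filter through the controls, so the call is not given as support. Of 10 granulosa and cumulus genes 8 were tested and 0 called with limma, beside 10.2% of all tested windows, with 0 called also at whole genes (1 window was called higher without control 1 and 1 lower without control 2). Their summed signal was 13.8, 2.25 and 5.53 in controls and 7.43, 4.81 and 6.46 in Dis3 cKO, with control 2 lowest. Foxl2, the granulosa factor, stood at 6.09, 0.749 and 3.56 against 1.996, 1.96 and 1.39 and had the highest mean of the list. The median log2 difference of the 8 was 0.44, beside 0.35 over all tested windows, from -0.53 at Foxl2 to 2.76 at Amhr2, the receptor of anti-Müllerian hormone (limma adjusted p 0.106). The part of other cells in the values of control 2 was not tested. Of 9 housekeeping genes with a start site, 0 windows held enough peaks to be tested. Over whole genes, where 5.00% of all spans were lower and 4.85% higher, 2 of 8 oocyte genes tested were lower, Lhx8 and Npm2. In Dis3 cKO Npm2 stood at 0 in all libraries and Lhx8 at 0.0984, 0 and 0. Both spans passed the filter through the controls, so these calls are not given as support. Of 2 housekeeping genes tested 1 was higher, Actb, at 0 in all controls and 0.107, 0.460 and 0.444 in Dis3 cKO. That span passed the filter through the Dis3 cKO libraries alone, so its call is not given as support either.

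**Figure D4:**
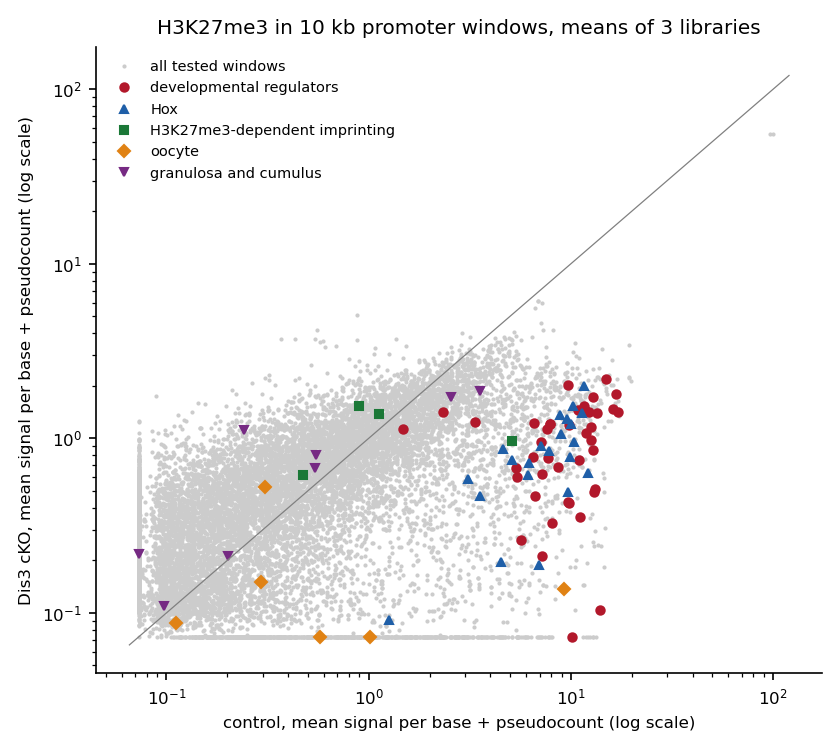
Each point is a 10 kb promoter window, with the mean signal per base of the 3 controls on the horizontal axis and of the 3 Dis3 cKO libraries on the vertical axis, both log scales with the pseudocount of 0.0728 added. Developmental regulators and Hox genes lie far below the diagonal at high control signal, while most windows lie near it at low signal.

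The spread over the genome was measured in 26324 bins of 100 kb. A peak was present in 63.1%, 85.0% and 62.1% of bins in controls and in 85.5%, 84.2% and 85.2% in Dis3 cKO. The coefficient of variation of the signal over bins was 235%, 295% and 252% in controls and 146%, 145% and 137% in Dis3 cKO. The bins with most signal that together held 50% of it were 5.81%, 4.76% and 5.24% of all bins in controls and 11.8%, 11.9% and 12.8% in Dis3 cKO. By these last measures all controls, control 2 included, were less even than all knockouts.

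limma tested 24032 bins with log2(signal per base + 0.00874). It called 5048 bins higher in Dis3 cKO (21.0%) and 864 lower (3.60%), with a median log2 difference of 1.01 over all bins tested. Once each library was centred on its median, the split turned to 268 higher and 2798 lower. With lists of equal length it was 74 higher and 714 lower, and with peaks above the median total signal 607 and 606. The calls depended on the number of knockout libraries: 136, 54 and 79 bins were called without Dis3 cKO 1, 2 or 3, of which 4, 0 and 3 were higher, and 6696, 8441 and 4523 without control 1, 2 or 3. The bins were ranked by mean signal and cut into 10 groups of equal size. The group with the most signal held 495 of the 864 lower bins and 28 higher ones, with a median log2 difference of -0.12. The fifth group from the bottom had a median of 1.88 and 860 higher bins.

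Named regions show what lies in such bins. The region with the largest decrease, chr7:141900001-142100000 with Tollip, Brsk2, Mob2 and Dusp8, stood at 0.297, 1.62 and 0.434 per base in controls and 0, 0 and 0.00217 in Dis3 cKO. Next came chr5:31000001-31200000, with Cad, Ucn and other genes, at 0.487, 1.85 and 0.802 against 0.0153, 0.00824 and 0. The region chr13:55800001-56000000 holds Pitx1, a hindlimb factor, and stood at 0.992, 3.796 and 1.28 against 0.0225, 0.0452 and 0.00672. The others were a cluster of tRNA and U1 RNA genes on chromosome 3 and the 5S array, so RNA gene arrays account for 2 of the 5 regions. Among the regions with the largest increases were immunoglobulin heavy chain variable genes (chr12:113900001-114100000) at 0.00388, 0.00382 and 0 in controls and 0.177, 0.138 and 0.170 in Dis3 cKO, the placental cathepsin genes Cts6, Cts7 and Cts8 on chromosome 13, and parts of Malrd1 on chromosome 2 and Magi2 on chromosome 5. These higher regions reached at most 0.258 per base in a Dis3 cKO library, below each control's value in the Pitx1 region. The Malrd1 region stood at 0 in all controls, and the Tollip region at 0 in Dis3 cKO 1 and 2. Bins without peaks in 1 genotype passed the filter through the other and had to differ, so the calls of these named regions are not given as support.

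Mean covered length was compared by chromosome. All 19 autosomes had a higher mean covered share in Dis3 cKO, by 1.501 times on chromosome 11 to 2.29 times on chromosome 3, and the X chromosome had a lower one (0.944 times), which was higher without control 2 (3.06 times). Control 2 lay above at least 1 Dis3 cKO library on chromosomes 5, 8, 9, 11 and 19, with 8.56% on chromosome 11 against 7.91% and 8.18% in Dis3 cKO 2 and 3. Mean shares ranged from 2.40% to 5.82% over the autosomes in controls and from 5.25% to 8.73% in Dis3 cKO. The differences between autosomes were smaller in the knockouts, with a coefficient of variation of 13.6% against 24.2%. Signal per Mb, whose sum over all peaks did not separate the genotypes, changed between 0.860 and 1.39 times on autosomes and 0.761 times on the X chromosome.

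The X chromosome carried less mark than the autosomes in 5 of the 6 libraries. The ratio of its covered share to that of the autosomes was 0.434, 1.81 and 0.487 in controls and 0.583, 0.617 and 0.585 in Dis3 cKO. Control 2 was the exception and alone had 93 wide peaks on X, against 1 and 1 in controls 1 and 3 and 4, 2 and 0 in Dis3 cKO. The difference of the means was -0.31 with all libraries (exact permutation p = 1) and 0.135 without control 2 (exact permutation p = 0.1, the smallest that 3 against 2 can give), so the direction rests on that library. The p20 libraries gave 0.407 to 0.418 in controls and 0.531 to 0.583 in the double knockout.

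**Figure D5:**
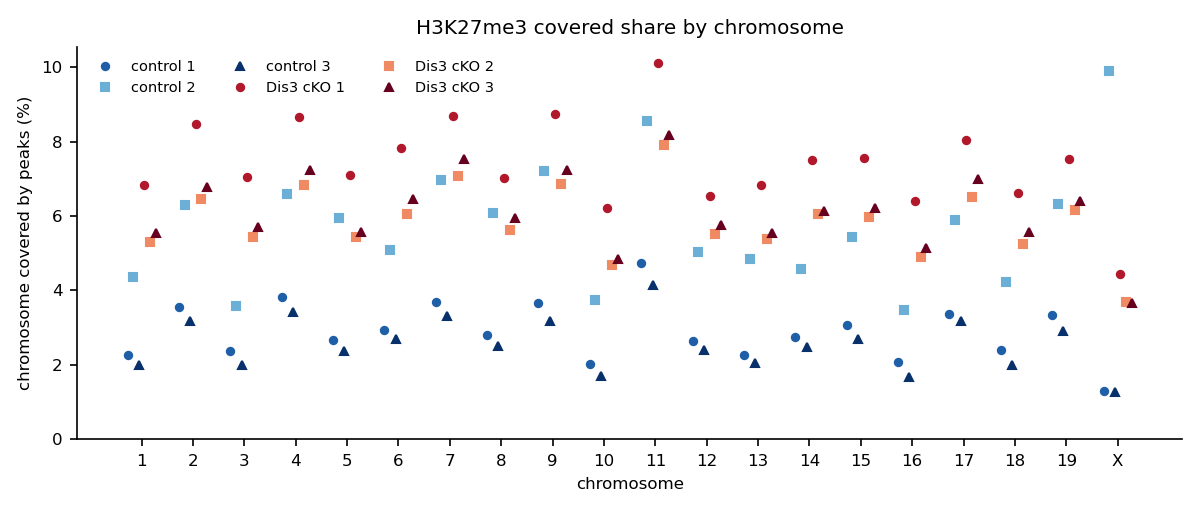
The share of each chromosome covered by peaks (percent, linear axis from 0) is plotted for the 6 libraries. Dis3 cKO points lie above controls 1 and 3 on every chromosome, and control 2 stands at 9.91% on the X chromosome, above all other libraries there.

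A smaller share of the mark lay in genes in Dis3 cKO. Of the covered length, 49.4%, 44.7% and 49.98% lay in protein-coding genes in controls and 39.8%, 39.8% and 38.8% in Dis3 cKO, where the spanned genome holds 39.1%. Within 1 kb of a protein-coding start lay 3.89%, 3.44% and 4.10% of covered length in controls and 2.01%, 1.99% and 1.94% in Dis3 cKO, against 1.25% of the genome. The groups did not overlap on either measure. The number of starts with a peak was not lower, at 3224, 5035 and 3042 of 17273 in controls and 4582, 3931 and 4039 in Dis3 cKO.

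Peak positions were shared only in part between libraries. Regions in peaks of all 3 controls came to 13.8 Mb, and Dis3 cKO libraries covered 60.3%, 49.7% and 49.6% of that length. Regions in peaks of all 3 Dis3 cKO libraries came to 24.6 Mb, and controls covered 40.1%, 42.1% and 34.7% of it. Of the first set 19.7% lay in no Dis3 cKO peak, and of the second 32.7% in no control peak. Regions common to all 6 lists came to 3.35 Mb.

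Overlap with Pol II was small in both genotypes. Pol II regions, present in at least 2 of the 3 Pol II libraries of a genotype, covered 0.218% of the genome in controls and 0.678% in Dis3 cKO. They took up 0.258%, 0.390% and 0.346% of the H3K27me3 length of the controls and 0.209%, 0.244% and 0.234% of that of the Dis3 cKO libraries. With the 5S rRNA gene array included, the groups did not overlap (exact permutation p = 0.1, the smallest possible here). The share of H3K27me3 peaks that touch a Pol II region differed in the other direction by 0.024 percentage points (exact permutation p = 0.7). Also with the array, the overlap was above the genome share of Pol II regions in controls and below it in Dis3 cKO. The array spans 83.3 kb, and Pol II peaks covered 98.0% to 100% of it in both genotypes. H3K27me3 peaks covered 100%, 99.7% and 100% of it in controls and 18.4%, 5.42% and 0% in Dis3 cKO. Shares without the array were not computed, so neither contrast is shown for the rest of the genome.

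RNA was read at the genes whose promoters differed, from the adult RiboMinus libraries. edgeR called 2405 of 15334 genes higher (15.7%) and 1900 lower (12.4%) in Dis3 cKO. Scaled to spiked ERCC RNA in place of total counts, 654 were higher and 6141 lower. When the counts of the 4 oocytes that share a number in their titles were summed, which leaves 2 sums a group, 0 genes passed with edgeR, so the RNA calls given here measure the spread between oocytes. Of the genes with lower promoter signal, 411 had enough RNA to be tested, and 46 were higher (11.2%) and 55 lower (13.4%). Among the genes of all tested windows 11.3% were higher and 11.9% lower. Only 21 genes with higher promoter signal could be tested, with 1 higher and 2 lower.

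Few developmental regulators had enough RNA to be tested. Of the 12 tested, 0 were higher and 1, Lhx2, was lower, beside 15.7% and 12.4% of all genes (log2 fold change -0.46, edgeR adjusted p 0.0431). Of 9 Hox genes tested, 2 were higher, beside 15.7% of all genes: Hoxd1 (log2 fold change 2.99, adjusted p 0.0134) and Hoxd9 (1.45, adjusted p 0.0323, which was 0.124 with ERCC scaling). Gbx2 RNA stood at 225 ± 22.5 CPM (SD, n = 8 oocytes) in controls and 219 ± 30.3 CPM in Dis3 cKO (log2 fold change -0.13, edgeR adjusted p 0.345), while its window held H3K27me3 peaks only in controls. With ERCC scaling Gbx2 was called lower (-0.69, adjusted p 0.00302), where the median over all genes was -0.52. Tfap2e fell by 0.38 on the log2 scale (adjusted p 0.00580), Prdm16 by 0.68 (adjusted p 0.00647) and Lhx8 by 0.69 (adjusted p 1.38e-05), each at a window with lower H3K27me3. RNA of Evx1, Dio3, Gsc, Isl2 and Adra2b, also among the largest promoter decreases, was not called (edgeR adjusted p 0.145 to 0.917). With ERCC scaling Gsc and Isl2 were called lower (edgeR adjusted p 0.0489 and 0.00674). Gab1 RNA rose (log2 fold change 1.38, adjusted p 0.0203, with ERCC scaling 1.06 and 0.0668) with no called difference in the mark, and Sfmbt2 RNA was not called (0.68, adjusted p 0.395) at a window with less of it.

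RNA of the Polycomb complex itself, looked up after the other results were seen, gave no call with scaling to total counts. The log2 fold change was -0.18 for Ezh2 (edgeR adjusted p 0.22), 0.15 for Ezh1 (0.21), 0.04 for Eed (0.82) and -0.14 for Suz12 (0.14). Of the H3K27 demethylase genes, Kdm6b was lower (-0.39, edgeR adjusted p 0.00304) and Kdm6a was not called (-0.17, adjusted p 0.235; with ERCC scaling lower, -0.73, adjusted p 0.00233). With ERCC scaling Ezh2 (-0.77, adjusted p 0.00121), Eed (-0.54, 0.00822) and Suz12 (-0.69, 0.00319) were called lower and Ezh1 was not (-0.36, 0.176), near the shift of -0.52 that this scaling gave the median gene.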

How the data were processed

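H3K27me3 CUT&Tag peak lists were analysed for 3 control and 3 Dis3 cKO libraries of adult GV oocytes. Each deposited list gives, per library, peak positions with a total and a maximum signal, made by the authors after 3000000 reads had been drawn at random from each library with duplicates kept, as the design text states. The layout is that of SEACR, and per the submitters' processing notes the tools include SEACR, STAR 2.7.2a, SAMtools 1.9, cutadapt 2.5 and HTSeq 0.9.1 and the build is mm10. Threshold, use of IgG and treatment of repeats are not given in the sources used here. Deposited lists hold no value below the threshold.

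The RNA files hold whole-number counts per gene made by the authors, as deposited, with ERCC counts in separate files, and gene counts of 16104881 to 35429028 per oocyte. Use of strand is not given in the sources used here.

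Peaks on chromosomes 1 to 19 and X were used. Peak signal was spread evenly over its width and averaged over 100 kb bins and over windows of 5 kb either side of RefSeq starts (GRCm38.p6). Bins and windows with a peak in at least 2 libraries were tested with limma 3.58.1 (trend, Benjamini-Hochberg, threshold 0.05, pseudocounts 0.00874 and 0.0728), so windows that passed only through the higher group had to differ. Values per list were compared by 2-sided exact permutation tests, and RNA by edgeR 4.0.16 in R 4.3.3 (quasi-likelihood, TMM, filterByExpr), with DESeq2 1.42.0 as an alternative. Other values were computed with Python 3.11.15, pandas 2.3.3 and scipy 1.17.1. The limma and edgeR steps were tested on simulated data.

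Named promoters are the 10 protein-coding genes per direction with the largest called log2 difference and no overlap between groups. Named regions are the 5 per direction with the largest mean difference over at least 2 joined bins, of which 1 is not reported here, and of each gene list the members with the highest mean signal, or all members of a short list, are named. Genes named outside this rule (the markers Foxl2, Cyp19a1, Bmp15, Zp3, Nobox and Oosp1, uncalled members, the genes of wide domains, the Polycomb complex and the demethylases) were chosen after their values were seen. Members, lists and tests were chosen with earlier results of these data known.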

Additional observations from a re-analysis of the deposited data

Results flagged for a closer look

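RNA of 30 groups of 8 single oocytes, for named genes, was screened for an oocyte set apart from the rest of its group by Dixon's test of the gap over the range (95% critical value). Chance gives about 1 in 20 such groups, and 4 were found. For Gab1, Dis3 cKO oocyte AM1713_3 stood at 34.3 CPM with the next at 15.1. For Hoxd9, Dis3 cKO oocyte AM1713_1 stood at 12.2 CPM with the next at 5.63. For Gbx2, control oocyte AM1759_2 stood at 177 CPM and Dis3 cKO oocyte AM1713_2 at 154 CPM, each with the next at 216. The calls of higher Gab1 and Hoxd9 RNA include these oocytes, and fits without them were not run. Groups of 3 libraries, as in the H3K27me3 data, were too small for this screen.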

How the results depend on the processing

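Each peak list value was recomputed under the alternatives, as Dis3 cKO minus control. Kept to peaks above the median total signal, the difference in median width was 29 bp and in summed signal -71.1 (in units of 1000000), and with lists of equal length 158 bp and -138, against -29.7 bp and 15.3, so both directions turned. Under the same settings covered length differed by 31.9 and 7.87 Mb, against 71.5 Mb, and peak count by 39604 and, as built in, 0, against 119017. With peaks joined within 1 kb, wide peaks differed by 1707 and their length by 7.48 Mb. The difference in cover of control domains, -42.2 percentage points, was -33.8 from 2 kb, -69.4 from 10 kb, -49.2 with lists of equal length and -21.6 with joined peaks. The share of peaks touching Pol II differed by 0.024 percentage points. Bins called, 5912 (864 lower, 5048 higher), were 9442 by covered length, 2316 with a pseudocount 10 times smaller, 3066 when centred and 2767 in bins of 500 kb. They were 1213 with peaks above the median (606 lower, 607 higher) and 788 with lists of equal length (714 lower, 74 higher). The excess of higher bins was lost in these last settings. Promoter windows called, 1448, were 696 by covered length, 516 without the filter, 930 with 1 kb on either side and 3099 for whole genes, an alternative added after seeing the data. RNA calls, 4305, were 6795 with ERCC scaling and 0 with counts summed by title number, also added later. The causes were not tested.

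With each library left out in turn, summed signal differed by -5.71 to 41.1 (-5.71 without control 3, -4.01 without Dis3 cKO 1), and the X to autosome ratio by -0.553 to 0.135 (0.135 without control 2). Bins called ranged from 54 to 8441 and promoter windows from 627 to 1680. Peak count differed by 98017 to 155629, covered length by 55.9 to 98.4 Mb, and wide peaks by -764 to -68.8. Depth was made equal, and with 3 libraries a group 0.1 is the smallest exact p. Of 319 values for named promoters under these settings, 278 kept their call and 41, at genes called higher, did not.

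Library numbers are shared between genotypes. Over bins, centred within each genotype, same-numbered libraries correlated at 0.047, -0.021 and -0.062 and differently numbered ones at -0.070 to 0.088. With 3 libraries a group, these values cannot show whether same-numbered libraries shared a batch. With the replicate block 4498 bins (778 lower, 3720 higher) and 1198 promoter windows (1115 lower, 83 higher) were called, and the smallest exact p of the list values was 0.25.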
